A study of Mus musculus with 4 samples.

Results

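HOX genes of the A and B clusters and their TALE partner genes were followed in mouse bone marrow cells that carried a β-catenin or a control retrovirus. The group was chosen by gene name: it took every probe set whose only gene symbol was Hoxa5, Hoxa7, Hoxa9, Hoxa10, Hoxb4, Meis1, Pbx2, Pbx3 or Pknox1. That gave 9 genes of 18193 genes on the array, read by 20 of the 34945 probe sets with 1 gene symbol. A probe set is a group of short oligonucleotides that together give 1 reading for a transcript, and Hoxa7 had 1, Hoxa5, Hoxa9, Hoxa10, Hoxb4 and Pbx3 had 2 each, and Meis1, Pbx2 and Pknox1 had 3 each.

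The cells were LSK cells, the marrow fraction without lineage markers and with Sca-1 and c-kit on the surface, in which blood stem and progenitor cells are enriched. The 4 samples were LSK cells 3 days after transduction with an eGFP retrovirus (eGFP day 3), LSK cells 3 days after transduction with a β-catenin retrovirus (β-catenin day 3), and LSK cells that received the β-catenin retrovirus and were then cultured for 50 days or for 300 days, which the labels call DKmix. All were grown in the same serum-containing medium with IL-3, SCF, Flt3 and IL-11. The labels give neither the mouse strain, the form of β-catenin in the vector nor the number of cultures, and whether both DKmix samples came from the same culture was not stated. Each group held 1 array, so every difference is between single arrays, has no replicate check and was not tested, and the number of arrays limits the precision.

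HOX proteins are homeodomain transcription factors encoded in clusters. In blood formation the A-cluster genes around Hoxa9 are active in stem and early progenitor cells and are switched off as cells mature, and Hoxb4 is known for expanding stem cells when it is supplied in excess. On their own HOX proteins bind DNA with little selectivity, and they gain it by pairing with TALE homeodomain proteins. The PBX proteins bind DNA beside HOX, while MEIS1 and PKNOX1 (also called Prep1) bind PBX and help to keep it in the nucleus. Hoxa9 and Meis1 together are a known driver of myeloid leukaemia.

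The deposited values were linear MAS5 intensities, already scaled to a common trimmed mean of 150 on each array. Values at or below 48.3, the median of all values on the 4 arrays, were set to this floor for ratios, and where 1 of the arrays lay at the floor the ratio is a bound, written "at least". A probe set at the floor on both arrays of a comparison was not measured in it. Of the 20 probe sets, 5 were above the floor on 4 arrays, 6 on 3 arrays, 2 on 2 arrays, 6 on 1 array and 1 on none, so many of these genes were read near the lower end of the scale.

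Hoxa9 was high on the β-catenin day 3 array and far lower on the DKmix arrays. Hoxa7, the next protein-coding gene to Hoxa9 in the RefSeq order on chromosome 6, had its only reading above the floor on the same array. Because these neighbours were high on the same array, the windows around their starts are shown, from 250 bases before to 50 bases after the start (RefSeq, GRCm38.p6, both on the minus strand, written 5′ to 3′ along the gene). The window of Hoxa7 lies at chr6:52218524-52218823 and that of Hoxa9 at chr6:52227321-52227620.
Hoxa7: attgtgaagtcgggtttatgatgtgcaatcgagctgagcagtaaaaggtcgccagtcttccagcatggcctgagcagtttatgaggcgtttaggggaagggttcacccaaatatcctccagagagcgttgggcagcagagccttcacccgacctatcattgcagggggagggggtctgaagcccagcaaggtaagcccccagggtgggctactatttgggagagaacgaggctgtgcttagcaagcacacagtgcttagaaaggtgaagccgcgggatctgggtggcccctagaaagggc
Hoxa9: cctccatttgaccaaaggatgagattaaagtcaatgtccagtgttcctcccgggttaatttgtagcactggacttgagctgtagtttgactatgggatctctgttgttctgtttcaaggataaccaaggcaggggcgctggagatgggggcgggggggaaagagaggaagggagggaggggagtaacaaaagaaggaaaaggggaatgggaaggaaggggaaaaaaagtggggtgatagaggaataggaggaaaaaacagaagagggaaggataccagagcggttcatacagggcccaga

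Hoxa9 was read by probe sets 1455626_at and 1421579_at. The first gave 34.5 on eGFP day 3, 1201.9 on β-catenin day 3, 14.1 on DKmix day 50 and 2.5 at DKmix day 300. The second gave 23.8, 266.1, 71.5 and 3.9 on the arrays in the same order. By both, the β-catenin day 3 array was the high one and eGFP day 3 and DKmix day 300 were below the floor, while at day 50 only the second was above it.

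The β-catenin day 3 array was at least 24.9-fold above eGFP day 3 by 1455626_at and at least 5.51-fold above it by 1421579_at. At DKmix day 50 the first was at least 24.9-fold lower than on β-catenin day 3, and the second was 3.72-fold lower (71.5 against 266.1), with both readings above the floor. At day 300 Hoxa9 was at least 24.9-fold and at least 5.51-fold lower than on β-catenin day 3. These sizes are limited by the floor, so the 2 probe sets give the same direction but no common fold.

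Hoxa7 (1449499_at) gave 31.5 on eGFP day 3, 125.4 on β-catenin day 3, 11.0 at DKmix day 50 and 18.6 at DKmix day 300. On the β-catenin day 3 array it was at least 2.60-fold above eGFP day 3, and at least 2.60-fold lower on either DKmix array than on β-catenin day 3. With no second probe set, the reading of Hoxa7 has no check within the array.

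The other A-cluster members were close to the floor. Hoxa10, which lies beside Hoxa9, gave 5.1, 50.8, 81.7 and 3.6 by 1431475_a_at on eGFP day 3, β-catenin day 3, DKmix day 50 and DKmix day 300. By 1446408_at it gave 77.9, 3.6, 7.2 and 8.5. The probe sets were above the floor on different arrays, so they do not give Hoxa10 a common course. Apart from day 50 over β-catenin day 3 by the first (a log2 ratio of 0.69), their ratios are bounds under 2-fold, which leave the size of a difference unknown. With the lower floor of 11.0 the log2 ratio of β-catenin to eGFP at day 3 was 2.21 by the first and -2.82 by the second. Hoxa5 was above the floor only by 1443803_x_at at DKmix day 300, at 81.2, with 17.4, 4.9 and 15.2 on eGFP day 3, β-catenin day 3 and DKmix day 50. Its other probe set, 1448926_at, lay between 3.2 and 6.6 on all 4 arrays.

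Hoxa10 had 2 start windows in the RefSeq table, and the one nearer to Hoxa9, at chr6:52234890-52235189 (GRCm38.p6, minus strand), is shown because it was the only window of these genes with a match to a searched word. Capitals mark CTTTGA, a core of the site bound by the TCF/LEF partners of β-catenin, which lay on the gene's strand with first bases 243 and 216 bases before the start.
Hoxa10: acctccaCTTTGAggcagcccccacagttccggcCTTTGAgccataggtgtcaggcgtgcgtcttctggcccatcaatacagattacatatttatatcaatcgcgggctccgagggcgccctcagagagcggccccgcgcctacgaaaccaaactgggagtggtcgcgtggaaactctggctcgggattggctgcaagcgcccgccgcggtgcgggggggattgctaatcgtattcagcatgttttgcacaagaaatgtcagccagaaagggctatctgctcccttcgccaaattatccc

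Windows of 7 of the 9 genes, 8 windows in all, were in the table, and Pbx3 and Pknox1 were not matched. The words CTTTGA and CTTTGT (TCF/LEF), TGATNNAT (PBX-HOX) and TGACAG (MEIS) were searched on both strands. They were found in 16.0%, 18.7%, 8.85% and 19.2% of all 32851 windows of this length. CTTTGA was in 1 of the 8 windows, and CTTTGT, TGATNNAT and TGACAG were in 0 of the 8. A match is a description of the letters, and Hoxa10, which holds it, was read too near the floor to size its differences.

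Hoxb4, the B-cluster member, was above the floor on all 4 arrays by 1460379_at, at 193.4 on eGFP day 3, 227.0 on β-catenin day 3, 239.4 at DKmix day 50 and 82.3 at DKmix day 300. Day 300 was the low array and the other readings lay between 193.4 and 239.4. By 1451761_at it gave 31.7, 63.8, 113.1 and 58.5, with day 50 the highest. At day 300 the brighter probe set was 2.91-fold below day 50 and 2.76-fold below β-catenin day 3. The dimmer one was 1.93-fold below day 50 and 1.09-fold below β-catenin day 3, short of 2-fold in each.

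Meis1, the partner that acts with Hoxa9 in leukaemia, took another course from Hoxa9: it was above the floor on β-catenin day 3 and stayed so on the DKmix arrays. Probe set 1450992_a_at gave 44.1 on eGFP day 3, 194.7 on β-catenin day 3, 318.1 at DKmix day 50 and 334.2 at DKmix day 300. Probe set 1443260_at gave 39.7, 117.0, 141.3 and 121.5. By both, eGFP day 3 was the only array below the floor.

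The β-catenin day 3 array was at least 4.03-fold and at least 2.42-fold above eGFP day 3 by these probe sets. The DKmix readings were 1.63-fold (day 50) and 1.72-fold (day 300) above β-catenin day 3 by the brighter one, and 1.21-fold and 1.04-fold above it by the other, all short of 2-fold. The remaining Meis1 probe set, 1459423_at, went the other way at day 3, with 94.9 on eGFP against 41.3 on β-catenin, at least 1.96-fold lower, and 30.6 and 44.8 on the DKmix arrays. Which Meis1 transcripts each probe set reads was not established here. The start window of Meis1 at chr11:19018920-19019219 (GRCm38.p6, minus strand) is shown for comparison with that of Hoxa9, since both genes were higher with β-catenin at day 3, and neither window holds a searched word.
Meis1: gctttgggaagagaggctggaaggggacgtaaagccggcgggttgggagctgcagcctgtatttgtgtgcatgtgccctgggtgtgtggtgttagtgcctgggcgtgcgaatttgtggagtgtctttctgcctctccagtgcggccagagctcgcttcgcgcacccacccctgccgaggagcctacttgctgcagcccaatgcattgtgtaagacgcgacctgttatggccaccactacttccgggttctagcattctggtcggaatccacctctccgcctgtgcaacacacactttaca

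Pbx3, a DNA-binding partner of HOX proteins, was highest at DKmix day 300 by both of its probe sets. By 1447640_s_at it gave 67.8 on eGFP day 3, 37.8 on β-catenin day 3, 124.1 at DKmix day 50 and 363.2 at DKmix day 300. By 1421193_a_at it gave 3.8, 39.1, 7.6 and 363.4, so that the readings were nearly equal at day 300 and differed at day 50. Each was at least 7.52-fold above β-catenin day 3 at day 300. Between day 50 and day 300 the first was 2.93-fold higher and the second at least 7.52-fold higher. At day 50 only 1447640_s_at was measured, at least 2.57-fold above β-catenin day 3. A name ending in _s_at marks a probe set that may read more than 1 transcript.

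Pbx2, a more widely expressed relative, varied less by 2 of its probe sets than by 1418894_s_at. By 1418893_at it gave 275.7 on eGFP day 3, 169.2 on β-catenin day 3, 323.2 at DKmix day 50 and 257.5 at DKmix day 300. By 1449261_at it gave 46.4, 84.3, 79.3 and 94.8. No ratio of either reached 2-fold in the 4 comparisons, that of 1449261_at over eGFP being a bound. At day 50 1418893_at was 1.91-fold above β-catenin day 3, and it passed 2-fold there with quantile normalization or lowess centring. By 1418894_s_at it gave 95.0, 71.2, 101.2 and 221.2, which put day 300 3.11-fold above β-catenin day 3 and 2.19-fold above day 50. At day 300 the other probe sets gave 1.52-fold and 1.12-fold above β-catenin day 3. Against day 50, 1418893_at was 1.26-fold lower and 1449261_at 1.20-fold higher.

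Pknox1, the PBX-binding relative of MEIS, was above the floor on all arrays by 1437470_at, at 294.9 on eGFP day 3, 468.9 on β-catenin day 3, 304.2 at DKmix day 50 and 383.9 at DKmix day 300. Its largest ratio by this probe set was 1.59-fold. By 1450172_at it gave 71.2, 85.0, 50.4 and 160.6, and day 300 was 3.19-fold above day 50. By 1421233_at it gave 73.1, 68.9, 5.6 and 79.3, with day 50 below the floor. All 3 probe sets were lower at day 50 than on the β-catenin day 3 array, by 1.54-fold, by 1.69-fold and by at least 1.43-fold, the last a bound.

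**Figure D1:**
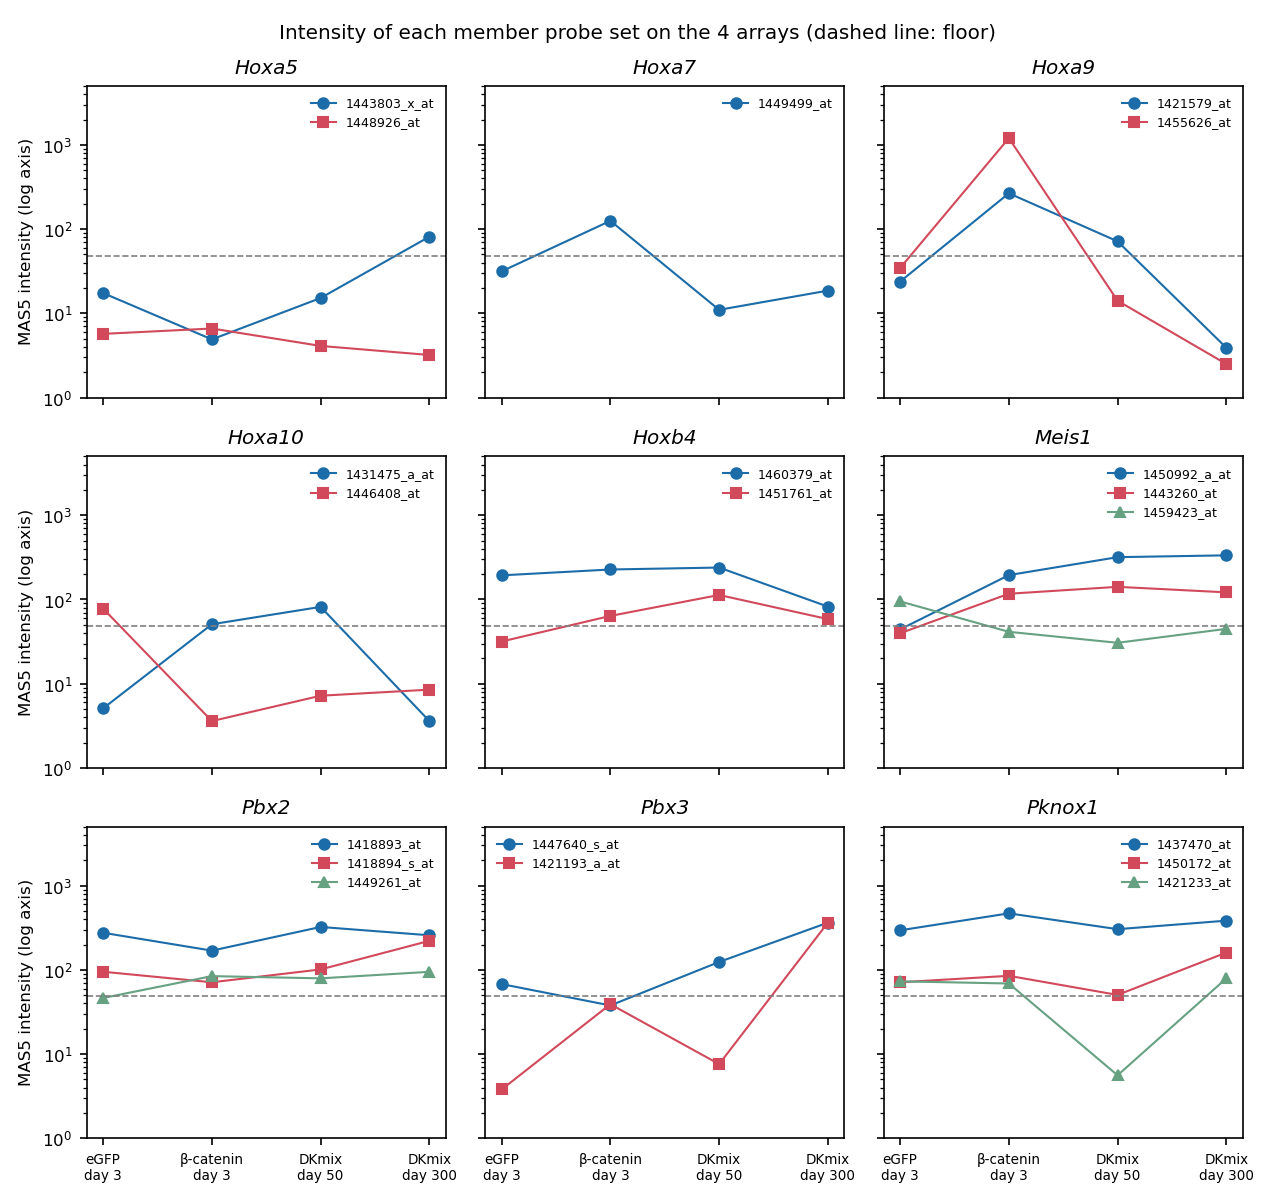
Each panel plots the MAS5 intensity (log axis) of every probe set of 1 gene on the 4 single arrays, eGFP day 3 leftmost and DKmix day 300 rightmost, with the floor of 48.3 as a dashed line. Lines join the readings of 1 probe set and are no time course between the day 3 samples. Hoxa9 peaks on β-catenin day 3 at 1201.9 and 266.1, Meis1 is below the floor on eGFP day 3 by 2 of its 3 probe sets, and Pbx3 is highest at day 300, at 363.2 and 363.4.

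The comparison of β-catenin with eGFP at day 3 asked which transcription factor genes accompany β-catenin early after transduction. Of the 17 member probe sets measured, 5 stood at least 2-fold above eGFP with β-catenin, where 11.5% of all probe sets were, and 0 were at least 2-fold lower, where 9.24% were. The 5 were those of Hoxa9 (both), Hoxa7 and Meis1 (2 of 3), and all 5 ratios are bounds, since eGFP day 3 was below the floor. The median log2 ratio of the members measured was 0.26, beside 0.02 over all probe sets. The summed intensity of 8 neutrophil markers moved the other way, from 100772 on eGFP day 3 to 11924 on β-catenin day 3, where Ltf, which encodes the granule protein lactoferrin, was at or below the floor, and the part of this in the result was not tested. Nor was that of monocyte, macrophage and dendritic cell markers, which went both ways. Ccr7 read 5.6, 892.0, 65.2 and 55.4 over the arrays, Cd86 36.6, 557.2, 3.5 and 40.7, and H2-Aa 1852, 8396.5, 7.1 and 27.1. These, Cd74 and H2-Eb1 were highest on the array on which Hoxa9 was. Csf1r instead fell from 11797.6 on eGFP day 3 to 1999.5 on β-catenin day 3, and Mpeg1 from 2567.5 to 221.8. Ly86 was below the floor on every array. On the scale set by the hybridisation control probe sets, 8 member probe sets were higher and 0 lower, where 26.8% and 5.61% of all probe sets were, so the larger count goes with a shift of the whole array.

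In the β-catenin cells from day 3 to day 50, 1 of 15 measured probe sets was at least 2-fold higher (all probe sets, 15.5%) and 3 were at least 2-fold lower (15.4%). The higher one was the _s_at probe set of Pbx3, and the lower ones were both of Hoxa9 and that of Hoxa7. The median log2 ratio was 0.08 for the members and 0.05 for all. The higher share was below the background, and the lower share came from the same neighbouring genes that were high on the β-catenin day 3 array, the sample common to both comparisons. On the hybridisation control scale, which lowers the DKmix arrays against β-catenin day 3 as a whole, 0 member probe sets were higher and 7 lower. Of all probe sets, 4.11% and 41.9% were. By the brightest probe set of each gene, 0 of 8 were higher and 3 lower, beside 4.35% and 42.6% of all genes.

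From β-catenin day 3 to DKmix day 300, 3 of 17 measured probe sets were at least 2-fold higher (all probe sets, 13.4%) and 4 were at least 2-fold lower (13.7%). Higher were both probe sets of Pbx3 and 1 of 3 of Pbx2, and lower were both of Hoxa9, Hoxa7 and the brighter one of Hoxb4. The medians were 0.17 for the members and -0.08 for all. Without probe sets named _x_at or _s_at, 1 was higher, 1421193_a_at of Pbx3. On the hybridisation control scale 2 were higher and 6 lower, beside 4.07% and 43.1% of all.

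Between DKmix day 50 and day 300, 4 of 15 measured probe sets were at least 2-fold higher at day 300 (all probe sets, 15.2%) and 1 was at least 2-fold lower (15.7%). The higher ones were both of Pbx3, 1 of Pbx2 and 1 of Pknox1, and the lower one was that of Hoxb4. The medians were 0.26 and -0.12.

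**Figure D2:**
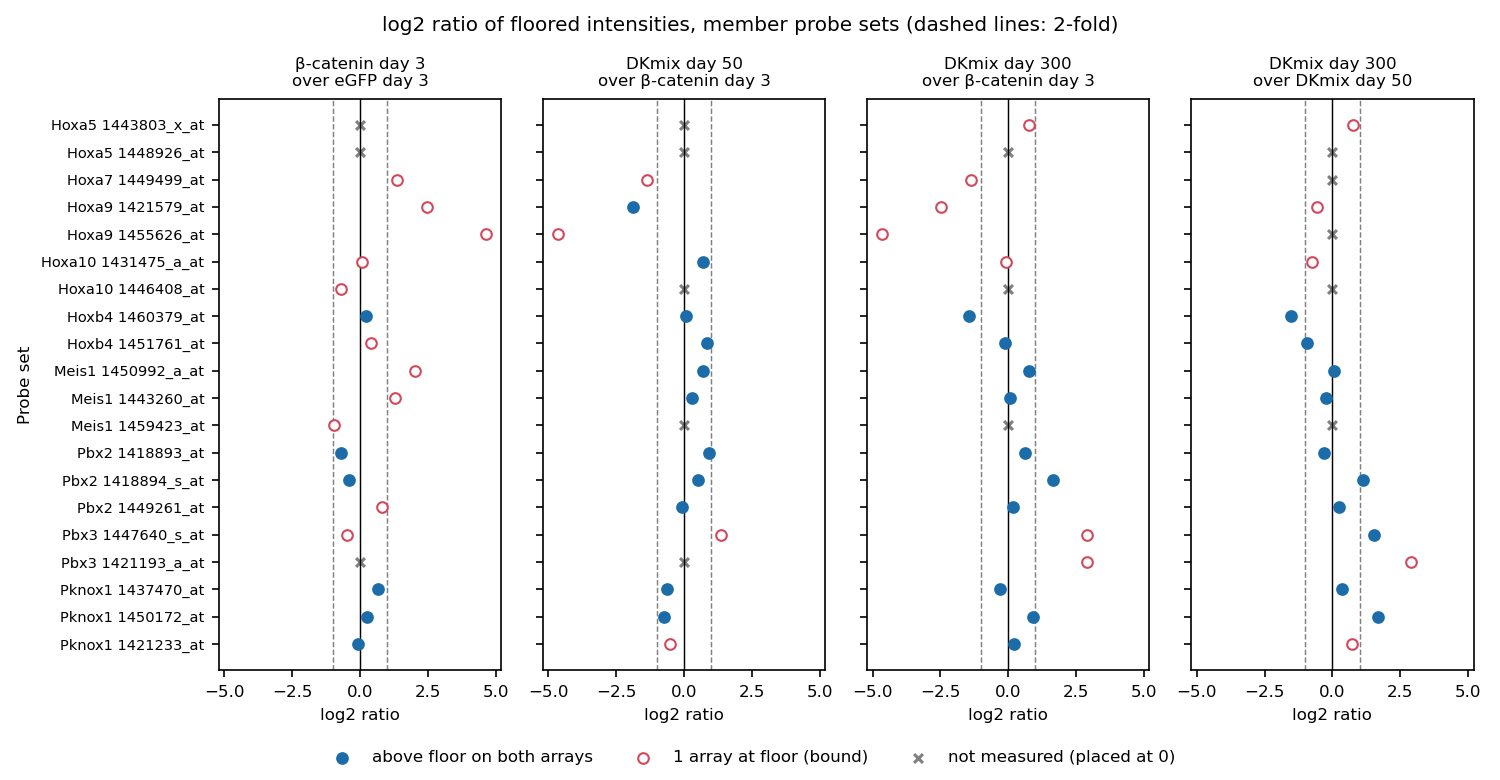
The log2 ratio of floored intensities is plotted for each of the 20 member probe sets (rows) in the 4 comparisons (panels). Filled points had both arrays above the floor, open points are bounds with 1 array at the floor, crosses mark probe sets that were not measured, and dashed lines mark 2-fold. The Hoxa9 points reach a log2 ratio of 4.64 for β-catenin over eGFP and -4.64 for DKmix over β-catenin day 3, and both Pbx3 points stand at 2.91 for day 300 over β-catenin day 3.

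When both DKmix arrays were set against both day 3 arrays, 0 of 19 measured member probe sets were at least 2-fold above both day 3 readings on both DKmix arrays, where 2.34% of all probe sets were. Likewise 0 were at least 2-fold below (2.18%). With eGFP day 3 left out, 3 were lower on both DKmix arrays (Hoxa7 at least 2.60-fold, Hoxa9 3.72-fold and at least 24.9-fold between nearest values) and Pbx3 was higher by 1 probe set (at least 2.57-fold), beside 6.40% lower and 4.60% higher of all probe sets. With DKmix day 50 left out, both Pbx3 probe sets (5.36-fold and at least 7.52-fold) and 1 of Pbx2 (2.33-fold) were higher at day 300 than on both day 3 arrays, and Hoxb4 was 2.35-fold lower by 1, beside 7.93% higher and 5.80% lower of all.

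Across the series, Ctnnb1 read 179.6 on eGFP day 3 and 1065 on β-catenin day 3 by 1430533_a_at, 5.93-fold higher, and 300.8 against 678.6 by 1450008_a_at, while 1420811_a_at gave 4732 and 4492. The 3′ to 5′ ratio of the Gapdh control, a measure of RNA and labelling quality, was 4.14 on eGFP day 3 and 4.96 on DKmix day 50, against 1.18 for the β-catenin sample at day 3 and 1.06 for the DKmix sample at day 300. The Actb control gave 1.83 and 3.41 on the former arrays and 1.32 and 1.20 on the latter. The part of RNA quality in the member readings was not tested. Of the 7 stem and progenitor cell markers read, 4, 5, 3 and 3 were above the floor over the arrays, in different directions. Kit, which encodes c-kit, read 55.8, 82.9, 3459.5 and 1262.7, Cd34 111.8, 804.1, 2068.5 and 4292.7, and Thy1 1188.5, 2360.6, 10.1 and 3.7. Prom1 was above the floor on eGFP day 3 alone (950.9), Slamf1 on β-catenin day 3 and DKmix day 50, Procr on β-catenin day 3 and DKmix day 300, and Flt3 on none, while Ly6a, which encodes Sca-1, was not analysed here. Of 8 mast cell markers, 6 were above the floor on eGFP day 3, 5 on β-catenin day 3, 7 at day 50 and 8 at day 300, with summed intensities of 596.4, 3431, 155086 and 58871. Of the 8 neutrophil markers, 8, 7, 3 and 1 were above the floor on the same arrays, with a summed intensity of 691.5 at day 50 and 191.0 at day 300. Of 8 monocyte, macrophage and dendritic cell markers, 5, 7, 3 and 2 were, with sums of 17975, 22860, 301.0 and 289.2. Of 4 B and T cell markers at most 1 was above the floor on any array, and of 3 erythroid markers 3, 2, 1 and 2 were. In such bulk samples, fewer cells of a type and less RNA per cell cannot be told apart, and the part of cell composition in the readings of Hoxa9, Meis1 and Pbx3 was not tested.

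The rest of the HOX family was mostly unread. Of 28 other Hox genes on the array, each taken by its brightest probe set, 9 were above the floor on no array and 0 on all 4. With β-catenin at day 3, 0 of 12 that could be measured rose 2-fold over eGFP, where 10.2% of all genes were, and 2 were lower (9.42%), Hoxd9 by at least 2.89-fold and Hoxb1 by at least 2.05-fold. The floor bears on that count of 0: like Hoxa7, Hoxd1, Hoxd10, Hoxd11 and Hoxd13 were above it only on β-catenin day 3, and Hoxb7 was at 2.5 on eGFP and 60.8 on β-catenin. Hoxd11 read 4.0 on eGFP and 79.6 on β-catenin, and Hoxd13 4.4 and 69.6, so their ratios are bounds under 2-fold. On the hybridisation control scale these 4 Hoxd genes and Hoxc5 were higher, 5 of 17, and Hoxd9 was lower, where 25.1% of all genes were higher and 5.76% lower. A rise at day 3 was therefore not shown to be particular to Hoxa9 and Hoxa7.

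At DKmix day 50, 2 of 14 were higher than on β-catenin day 3 (all genes, 16.1%) and 1 was lower (15.7%). Hoxb7 went from 60.8 to 150.1, 2.47-fold, and Hoxc4 was at least 2.44-fold higher, while Hoxb9 was at least 2.79-fold lower. At day 300, 1 of 12 was higher than on β-catenin day 3 (14.0%) and 1 lower (14.4%). Hoxc4 read 14.2, 4.0, 117.7 and 268.2 over the arrays, so day 300 was at least 5.55-fold above β-catenin day 3 and 2.28-fold above day 50. Between the DKmix arrays 1 of 11 was higher (15.1%) and 1 lower (15.9%), the latter Hoxb7, at least 3.11-fold. The median log2 ratios of the other Hox genes in the 4 comparisons were 0.23, 0.47, -0.36 and -0.54, beside -0.01, 0.07, -0.08 and -0.14 for all genes.

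A list of other TALE genes, to which the gene of the PBX-binding protein Pbxip1 was added, had 7 genes on the array. Among them Meis2, a close relative of Meis1, read 15.9 on eGFP day 3, 8.5 on β-catenin day 3, 186.9 at DKmix day 50 and 578.5 at DKmix day 300. It was at least 3.87-fold higher at day 50 and at least 12.0-fold higher at day 300 than on β-catenin day 3, and 3.10-fold higher at day 300 than at day 50. Tgif1, a TALE repressor, took a course like that of Hoxa9 at day 3 and day 50: 105.6, 346.6, 30.5 and 63.9, hence 3.28-fold above eGFP on β-catenin day 3 and at least 7.18-fold and 5.42-fold lower on the DKmix arrays. Pbxip1, a PBX-binding protein, was 2.20-fold and 2.04-fold above β-catenin day 3 on the DKmix arrays, but under 2-fold on the hybridisation control scale. In all, 1 of 5 measured was higher and 0 lower at day 3 (all genes, 10.2% and 9.42%). Against β-catenin day 3, 2 of 6 were higher (Meis2 and Pbxip1) and 1 lower at day 50 (all genes, 16.1% and 15.7%). At day 300 the same 2 of 5 were higher and 1 lower (14.0% and 14.4%). Between the DKmix arrays 1 of 6 was higher and 0 lower (15.1% and 15.9%). The medians in the 4 comparisons were 0.07, -0.03, -0.34 and 0.15.

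The MLL complex and other Trithorax proteins keep Hox genes active, and CDX factors switch on clusters in development. At day 3 the β-catenin sample was at least 2-fold above eGFP for 3 of 17 measured genes of this list and below it for 1. Higher were Kdm6a (2.46-fold), an H3K27 demethylase, Mllt3 (at least 2.40-fold), an elongation complex protein, and Ash2l (2.33-fold), a core subunit of MLL complexes. Kdm6b, another H3K27 demethylase, was 3.31-fold lower. The shares of all genes were 10.2% and 9.42%. When the probe sets of a gene were averaged, 0 were higher and 1 was lower (all genes, 11.3% and 9.03%).

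At day 50, 2 of 17 were higher than on β-catenin day 3, Kdm6b (5.01-fold) and Aff1 (2.24-fold), and 2 lower, Ash2l (2.32-fold) and Mllt1 (2.04-fold). At day 300, 1 of 17 was higher, the H3K79 methyltransferase gene Dot1l (2.13-fold), and 4 were lower, with Wdr5 2.89-fold, Ash2l 2.55-fold, Mllt1 2.35-fold and Rbbp5 2.21-fold. Wdr5, Ash2l and Rbbp5 encode core subunits shared by MLL complexes. Kmt2a, which encodes MLL1 itself, read 267.3, 416.8, 254.6 and 658.0 over the arrays. Between the DKmix arrays it was 2.58-fold and Dot1l 3.49-fold higher at day 300, the 2 higher of 15 measured, and Aff1, Kdm6b and Rbbp5 were the 3 lower ones (4.02-fold, 2.65-fold and 2.50-fold). Of all genes, 16.1% were higher and 15.7% lower at day 50, 14.0% and 14.4% at day 300, and 15.1% and 15.9% between the DKmix arrays. The medians in the 4 comparisons were 0.22, -0.04, -0.20 and -0.41. With averaged probe sets, 2 of 16 were higher and 5 lower at day 50 (all genes, 13.7% and 15.7%), 2 and 3 of 16 at day 300 (13.2% and 13.6%), and 4 and 2 of 13 between the DKmix arrays (14.2% and 12.4%), where the median turned to 0.34.

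Polycomb proteins silence Hox genes. At day 3 the β-catenin sample was at least 2-fold above eGFP for 2 of 14 measured genes and below it for 0: Bmi1 (2.31-fold), a PRC1 subunit needed by blood stem cells, and Phc2 (2.12-fold). At day 50, 2 of 16 were higher than on β-catenin day 3, Ezh1 (2.21-fold) and Cbx7 (at least 2.17-fold), and at day 300 1 of 16 was, Phc1 (2.41-fold), with 0 lower in either. Between the DKmix arrays 0 of 16 passed 2-fold in either direction, although Cbx2 was higher with quantile normalization, and Cbx2 and Cbx8 with lowess centring. With averaged probe sets 2 of 12 were higher and 1 lower at day 3. Against β-catenin day 3, 0 of 13 were then higher and 1 lower at day 50, and 1 of 14 higher and 2 lower at day 300. Between the DKmix arrays 1 of 16 was higher and 1 lower. The shares of all genes given for the MLL list apply here too, and most of these counts lie below them. The medians were 0.35, 0.22, 0.03 and -0.01.

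Genes reported as targets of Hoxa9 or Meis1 in myeloid leukaemia models went both ways. At day 3, 5 of 15 readable genes passed 2-fold upward with β-catenin, beside 10.2% of all genes, and 2 downward, beside 9.42%. Cd34, a progenitor surface protein, was 7.19-fold, Sox4 6.85-fold and Gfi1, a transcriptional repressor, at least 5.46-fold higher. Id2, an inhibitor of basic helix-loop-helix factors, was 10.0-fold lower. The median was 0.67.

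At DKmix day 50, 4 of 16 were higher than on β-catenin day 3 and 3 lower, beside 16.1% and 15.7% of all genes, and at day 300, 5 of 16 were higher and 6 lower, beside 14.0% and 14.4%. Sox4 was 13.8-fold and 18.5-fold lower on the DKmix arrays, and Ccl3, a chemokine gene, at least 8.85-fold lower on each. Cd34 was 2.57-fold and 5.34-fold higher and Id2 23.7-fold and 11.2-fold higher. Myb, a progenitor factor, was 1.08-fold higher at day 50 and 5.61-fold lower at day 300. Between the DKmix arrays 5 of 15 were higher and 6 lower at day 300, beside 15.1% and 15.9% of all genes. They were led by Etv6 (7.62-fold higher), Myb (6.03-fold lower) and Cdkn2a (at least 5.96-fold lower), and Lmo2 was 4.02-fold lower. Cdkn2a was above the floor at day 50 alone, at 287.7, at least 5.96-fold above β-catenin day 3. The medians were 0.09, -0.12 and -0.43. Within this list, Sox4 was highest on the array on which Hoxa9 was highest, while Cd34 was highest at day 300, where Hoxa9 was below the floor and Meis1 was not. On the hybridisation control scale 9 of 16 targets were higher and 2 lower at day 3, where 25.1% and 5.76% of all genes were. Against β-catenin day 3 on that scale, 2 of 17 were higher and 5 lower at day 50, where 4.35% and 42.6% of all genes were, and 4 of 17 higher and 9 lower at day 300, where 4.45% and 44.0% were. The MLL list had 1 higher and 8 lower of 17 at day 50 and 0 and 9 of 17 at day 300, and the Polycomb list 0 and 6 of 15 and 0 and 8 of 15, as the whole array shifted.

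**Figure D3:**
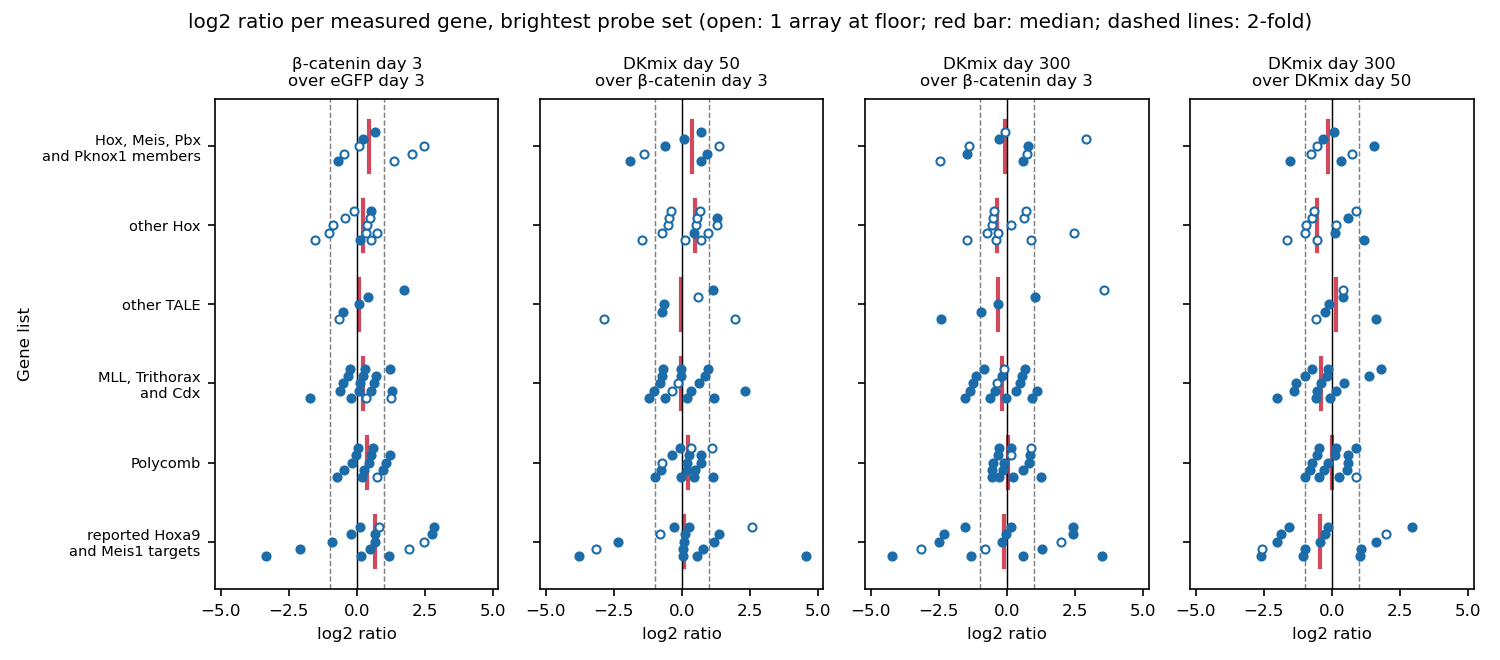
The log2 ratio of each measured gene, by its brightest probe set, is plotted for the 9 members and the 5 related lists in the 4 comparisons. Open points have 1 array at the floor, red bars are medians over the measured genes of a list, and dashed lines mark 2-fold. The Hoxa9 and Meis1 target list has the widest spread, from a log2 ratio of -4.21 for Sox4 to 3.48 for Id2 between day 300 and β-catenin day 3, and the Polycomb list has no gene past 2-fold between the DKmix arrays on the deposited scale shown, but 1 with quantile normalization and 2 with lowess centring or with averaged probe sets.

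The genes whose pattern over the 4 arrays lay nearest to that of a member were found among 15291 genes by the root mean square difference of centred log2 intensities. For Hoxa9 (1421579_at) they were Ccr2, a chemokine receptor (0.14), Itgb5 (0.16) and Mpzl1 (0.19). Ccr2 read 30.9, 334.2, 72.3 and 17.8. For Meis1 they were St3gal2 (0.02), Zdhhc21 (0.16) and Slc30a1 (0.16), and St3gal2 read 15.1, 202.6, 329.7 and 337.7. For Pbx3 they were Bbs9 (0.10), Dynlt3 (0.10) and Enpp5 (0.13), and for Hoxb4 Gadd45a (0.04), Tff1 (0.07) and Erg28 (0.07). For Hoxa7, with 1 array above the floor, Gpr3, Gm20767 and Rnaset2a (0.01 each) are simply genes read on that array alone at a like level. Hoxa5, Hoxa10, Pbx2 and Pknox1 spanned less than 2-fold after the floor by their brightest probe set and were left out, which for Hoxa5 (4.9 to 81.2 as read) and Hoxa10 (3.6 to 81.7) is set by the floor. With 4 arrays many genes fall close by any such measure.

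Agreement between probe sets was uneven. The SD by which the 2 brightest probe sets of a gene disagreed was 0.64, 0.81, 0.64 and 0.91 (log2) in the 4 comparisons. It is a measure within arrays that does not hold the spread between samples. Only probe sets above the floor on both arrays entered it. It therefore does not cover bounds, which were 14 of the 21 member ratios past 2-fold. At day 3, 6 members had at least 2 measured probe sets, and for 2 of them, Hoxa9 and Hoxb4, these lay on the same side of a log2 ratio of 0. Hoxa10, Meis1, Pbx2 and Pknox1 lay on both sides. From β-catenin day 3 to day 50 it was 4 of 5, with Pbx2 the exception, and to day 300 it was 5 of 6, with Pknox1 the exception. Between the DKmix arrays it was 3 of 5, without Meis1 and Pbx2. Over all genes past 2-fold by the brightest probe set, the next brightest had the same direction for 68.3%, 71.7%, 81.3% and 63.5% in the 4 comparisons. Hoxb4 had no opposed probe sets in any comparison on the deposited scale. For day 300 over β-catenin day 3, its 1451761_at turned from a log2 ratio of -0.13 to 0.13 with quantile normalization and 0.07 with lowess centring. By 1460379_at the ratio was -1.30 and -1.45 with these. Hoxa9 had none where both probe sets were measured, which leaves out day 300 over day 50. Pbx3 had none in the 2 comparisons in which both of its probe sets were measured, and Meis1 was opposed by 1459423_at at day 3.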

How the data were processed

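RNA of 4 samples was hybridised to 1 Affymetrix array each as biotin-labelled cRNA, per the labels' protocols. The deposited values were linear intensity signals of 45101 probe sets, made by the authors with MAS5 per the submitters' processing notes, and their mean after trimming 2% at either end was 150 on every array. Neither a MAS5 version nor a genome build was given in the sources used, and detection calls were not used here.

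Gene symbols came from the platform annotation, and probe sets with several symbols and control probe sets were left out. From the intensities, log2 ratios were computed after a floor of 48.3, with numpy 2.4.6, pandas 2.3.3 and Python 3.11.15, and a 2-fold ratio was counted as higher or lower. In lists a gene was represented by the probe set brightest on average (mean of log2). Disagreement between probe sets was given as the SD, over genes, of the difference between the log2 ratios of 2 probe sets. These were the 2 brightest of those above the floor on both arrays. The SD was divided by the square root of 2 as for independent readings. The counting was tested on simulated data.

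Named were all member probe sets, up to 4 genes of each list with the largest ratios past 2-fold in a comparison, values of these genes elsewhere, and the 3 nearest genes of each member that spanned 2-fold. The members and lists were chosen with earlier results of these data known. Alternatives were the hybridisation control scale (9 probe sets), quantile normalization, lowess centring (fraction 0.3, statsmodels 0.14.6), a floor of 11.0 or 134.6, a 3-fold threshold, leaving out probe sets named _x_at or _s_at, and averaging a gene's probe sets.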

Additional observations from a re-analysis of the deposited data

How the results depend on the processing

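Each group held 1 array, so no value could be checked against a replicate. No paired analysis was possible because each group held 1 array. Of the 21 member ratios past 2-fold, 14 of them bounds, every ratio kept its sign under each alternative that gave a value. Another floor or leaving out other probe sets cannot turn a sign. Only the hybridisation control scale, quantile normalization and lowess centring could have done so. All 21 stayed past 2-fold by construction with a floor of 11.0, which can only keep or widen a ratio. The 16 left without _x_at and _s_at probe sets were unchanged by that step. Neither setting is therefore a check. All 21 also stayed past 2-fold with lowess centring or quantile normalization. On the hybridisation control scale 19 of 21 did, without Pbx3 at day 50 (log2 ratio 0.67) and Pbx2 at day 300 (0.64), each against β-catenin day 3. With the floor of 134.6, 7 of 16 did, since dim readings move to the floor by construction.

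The comparisons are called A (β-catenin over eGFP at day 3), B (DKmix day 50 over β-catenin day 3), C (DKmix day 300 over β-catenin day 3) and D (DKmix day 300 over day 50). The counts of member probe sets that moved by over 1.5 times were as follows. With a 3-fold threshold, 3 were higher in A, 0 in B and 2 in D, and 2 were lower in C and 0 in D. With the floor of 11.0, 8 were higher and 2 lower in A, 5 lower in B and 3 lower in D. With the floor of 134.6, 1 was higher in A, 0 in B and 2 in D, and 1 was lower in B, 1 in C and 0 in D. On the control scale 8 were higher in A, and 0 were higher and 7 lower in B. Lowess centring and quantile normalization each gave 2 higher in B. Without _x_at and _s_at probe sets 0, 1 and 2 were higher in B, C and D. Of all probe sets left, 3229 of 21531, 2717 of 19657 and 3165 of 20303 measured were. For both DKmix against both day 3 arrays, 1 was lower with the floor of 11.0. Leaving out eGFP day 3 or DKmix day 50, chosen after seeing the data, gave between 1 and 3 higher and between 1 and 3 lower.

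Over all probe sets, counts moved more. At 3-fold, with either other floor and on the control scale they moved in the same direction as the member counts just given. For A to D, 862, 1390, 1363 and 1569 were higher and 592, 1640, 1057 and 1119 lower at 3-fold, of 23686, 24524, 22500 and 23164 measured. Measured were 31396, 32021, 31227 and 31602 with the floor of 11.0, and 11850, 12613, 12349 and 12502 with that of 134.6. Of these, 7520, 8508, 6897 and 7300 were higher and 6659, 8318, 8083 and 8738 lower with the floor of 11.0. With the floor of 134.6, 1020, 1633, 1718 and 2000 were higher and 755, 1921, 1419 and 1451 lower. On the control scale, whose controls were brighter than on β-catenin day 3 by a log2 of 0.52 on eGFP day 3, 1.05 at day 50 and 1.00 at day 300, 7031, 1044 and 988 were higher in A, B and C, and 10646 and 10457 lower in B and C. For both DKmix against both day 3 arrays, 256 were higher and 220 lower at 3-fold, 1655 and 1735 with the floor of 11.0, 394 and 328 with that of 134.6, and 213 and 2108 on the control scale. Leaving out eGFP day 3 or DKmix day 50 gave between 1194 and 2013 higher and between 1473 and 1663 lower. With the mean of all probe sets, 6 of 20 list counts moved by over 1.5 times.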
